A study of Arabidopsis thaliana with 10 samples.

Results

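The 38 genes described here, called late-rise genes, showed at most a small rise in Arabidopsis thaliana pistils 0.5 hours after pollination and were higher by 3.5 hours. They were chosen from the measured values. With UP for unpollinated pistils, HAP for hours after pollination, and group means of log2(value + 16), a probe set was taken if 0.5 HAP minus UP was under 0.5 and both 3.5 HAP minus UP and 3.5 HAP minus 0.5 HAP were 0.8 or more. A probe set is the group of array probes that reads a transcript. It also had to name 1 gene of the nuclear genome, and 5 genes (GH3.3, AT3G26870, AT3G26880, AT5G39580 and AT3G19690) were left out by name. Of 22745 probe sets tested, 88 met the thresholds, 3 of them for genes left out by name and 47 naming no gene, several genes or an organelle gene. The remaining 38, of 13366 that name 1 nuclear gene, belong to 38 different genes, none with another probe set on the array.

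The series compared 5 groups of 2 arrays, all of ecotype Columbia and all from emasculated flowers: unpollinated pistils, pistils at 0.5, 3.5 and 8 HAP, and unfertilised ovules dissected from unpollinated pistils. RNA on each array came from pooled pistils or ovules. P-values therefore measure the spread between the 2 pools of a group, combined over all 5 groups except where a 2-group fit is named. The labels describe no step that removed pollen or pollen tubes from pollinated pistils. In such bulk tissue a higher value from more cells of a type cannot be told apart from more RNA per cell, and pollen RNA cannot be told apart from pistil RNA.

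After a pollen grain germinates on the stigma, its tube grows between the papilla walls, through the style and along the transmitting tract, and then turns towards an ovule. At the growing tip the tube wall is largely pectin, whose stiffness is set in part by pectin methylesterases and their inhibitors. The tract cells loosen their own walls as tubes pass. Expansins loosen walls without cutting them, class III peroxidases and cinnamoyl-CoA reductase act in wall cross-linking and lignin synthesis, and chitinases and PR-1-like proteins are secreted proteins best known from defence.

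Median intensities of the arrays lay between 251.5 and 272.2. Values up to 136.5, the 95th percentile of 27 bacterial control probe sets, are called background level, and folds on the log2(value + 16) scale understate changes there. UP replicate 2 differed most from the rest in a sign of RNA quality: the actin control's 3' probe set exceeded its 5' probe set by 2.96 on the log2 scale, against 1.93 to 2.55 on the other arrays. The labelled tissues were checked with marker genes, by the sum of their intensities. The 5 measured genes of the stigma, style and transmitting tract list (of 5) were all above background level in unpollinated pistils. Their sum did not separate the tissues, with 4411 and 3984 in unpollinated pistils and 3999 and 4108 in ovules. By limma calls 4 of them were lower in ovules and 1, ARPN, was higher, where 22.0% and 29.6% of all probe sets were. The 5 measured ovule and embryo sac genes (of 9) summed to 6150 and 6662 in ovules against 1488 and 1430 in unpollinated pistils.

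**Figure D1:**
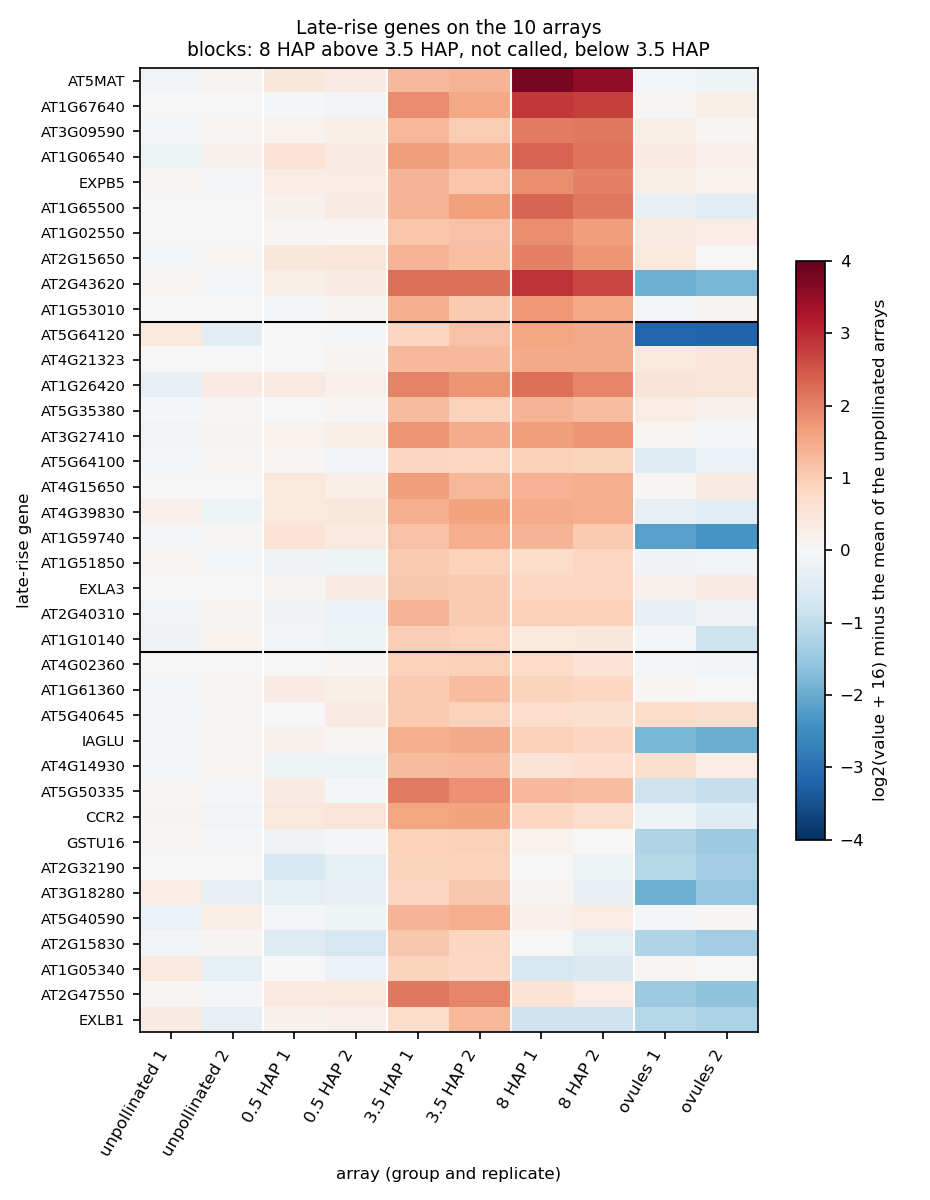
Late-rise genes (vertical axis) on the 10 arrays (horizontal axis), coloured by log2(value + 16) minus the mean of the unpollinated arrays, from blue (below) to red (above). The blocks from top to bottom hold the 10 genes called higher at 8 HAP than at 3.5 HAP, the 13 not called and the 15 called lower; the 3.5 HAP columns are red in all blocks because the genes were chosen so.

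The rise itself was what the genes were chosen for and is given as a description. From UP to 3.5 HAP the log2 difference lay between 0.85 (AT5G64100) and 2.20 (AT2G43620), with a median of 1.24. From 0.5 to 3.5 HAP it lay between 0.81 (AT2G15650) and 1.92 (AT2G43620), with a median of 1.12. In unpollinated pistils 15 of the 38 genes were already above background level, and 23 were within it; at 3.5 HAP 30 were above it. The 8 that were still within it at 3.5 HAP, AT5G40590, AT2G40310, AT1G53010, AT4G15650, AT1G51850, AT5G35380, AT5G40645 and AT2G15650, are the least secure in size. AT2G15650 is annotated as a pseudogene, and its probe set is of the type that can match more than 1 transcript.

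The thresholds cut through a continuous range. The genes nearest inside the limit on the 0.5 HAP difference were AT1G59740 (0.47), AT2G15650 (0.46) and CCR2 (0.46), and the nearest outside was AT5G40155 (0.55). At the lower limit on the 3.5 HAP minus UP difference, AT5G64100 (0.85) was in and AT5G01210 (0.79) was out. On the step from 0.5 to 3.5 HAP, AT2G15650 (0.81) was in and AT3G11930 (0.76) was out. At 0.5 HAP the difference from UP was over 0.3 on the log2 scale in 8 genes, within 0.3 of zero in 27 and under -0.3 in 3. The limit did not keep out small early rises: limma called 7 of the 38 higher and 2 lower at 0.5 HAP than in UP, where 15.5% of all probe sets were called higher and 14.7% lower. The rule used that contrast, and nothing is read from these counts.

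Repeating the choice on the arrays of 1 replicate let the rise be measured on arrays that had not been used. With replicate 1 arrays alone 38 probe sets met the rule, and on the replicate 2 arrays 37 of them were higher at 3.5 than at 0.5 HAP, with a median log2 difference of 1.06. With replicate 2 arrays alone 35 met it, and on the replicate 1 arrays all 35 were higher, with a median of 1.18. These sets shared 29 and 28 genes with the 38. The rule was met in each replicate taken alone by 20 of the 38 genes. Without UP replicate 2, 32 probe sets met the rule, 29 of them among the 38.

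Among the wall genes, AT2G47550, a pectin methylesterase, stood at 251 and 234 in unpollinated pistils, 325 and 326 by 0.5 HAP, 1111 and 991 by 3.5 HAP, 362 and 302 by 8 HAP, and 78.5 and 68.4 in ovules. Its 3.5 HAP arrays were thus far above all others, and its 8 HAP arrays were back near those at 0.5 HAP. The fall from 3.5 to 8 HAP was 3.07-fold (log2 -1.62, SE 0.106; limma adjusted p = 6.57e-06). It was 1.34-fold above UP at 8 HAP (adjusted p = 0.0087), a call that was lost without 8 HAP replicate 1 (log2 0.30, adjusted p = 0.0965).

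AT1G02550, a protein of the pectin methylesterase inhibitor family, went the other way. Its arrays read 61.3 and 58.7 in unpollinated pistils, 62.1 and 63.3 by 0.5 HAP, 148 and 155 by 3.5 HAP, and 258 and 226 by 8 HAP, so no group overlapped the one before or after it from 0.5 HAP on. It rose 1.54-fold from 3.5 to 8 HAP (log2 0.62, SE 0.0867; adjusted p = 0.000513). AT2G40310, of the pectin lyase-like superfamily, was within background level on every array, with 94.1 and 72.9 by 3.5 HAP and 67.3 and 66.2 by 8 HAP (adjusted p = 0.14).

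Of the expansins, 3 were late-rise genes, and they parted after 3.5 HAP. EXLB1, an expansin-like protein, had 330 and 204 in unpollinated pistils, 296 and 299 by 0.5 HAP, 448 and 681 by 3.5 HAP, 140 and 139 by 8 HAP, and 110 and 100 in ovules. It fell 3.65-fold from 3.5 to 8 HAP (log2 -1.87, SE 0.202; adjusted p = 0.000121), the largest fall of the 38 genes, and ended 1.77-fold below UP (adjusted p = 0.00757; adjusted p = 0.0513 without UP replicate 1). EXPB5, a beta-expansin, had 53.8 and 46.7 in unpollinated pistils, 65.6 and 64.7 by 0.5 HAP, 152 and 128 by 3.5 HAP, and 224 and 252 by 8 HAP. It rose 1.63-fold in the last step (log2 0.71, SE 0.104; adjusted p = 0.000666). EXLA3 read 78.6 and 76.2, then 83.8 and 100, then 182 and 178, then 149 and 150 over the same groups, and its last difference was not called (log2 -0.24, adjusted p = 0.072).

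The family was named after the genes were known, and 19 expansins were measured under a symbol or synonym. Their median log2 difference from 0.5 to 3.5 HAP was 0.09, and 4 exceeded 0.8; the fourth, EXPA8, was below its unpollinated level at 0.5 HAP (437 on average in UP, 206.2 at 0.5 HAP and 506.2 at 3.5 HAP). From 3.5 to 8 HAP 7 of the 19 rose and 2, EXLB1 and EXPA8, fell, in a step in which 18.9% of all probe sets were called higher and 12.4% lower.

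CCR2, cinnamoyl-CoA reductase, which leads hydroxycinnamoyl-CoA towards lignin, read 86.4 and 71.3 in unpollinated pistils, 111 and 116 by 0.5 HAP, 267 and 275 by 3.5 HAP, and 153 and 139 by 8 HAP. It fell 1.77-fold from 3.5 to 8 HAP (log2 -0.82, SE 0.108; adjusted p = 0.000348) and was still 1.71-fold above UP. In all, of the 7 genes of cell wall and lignin, 2 rose and 3 fell from 3.5 to 8 HAP, where 18.9% of all probe sets rose and 12.4% fell. At 8 HAP 6 of the 7 were above UP, as were 19.7% of all probe sets and 30 of the 38 late-rise genes.

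Of the 8 genes of defence and redox reactions, AT2G43620, a chitinase family protein, had the largest rise of all 38 by 3.5 HAP. It had 279 and 257 in unpollinated pistils, 317 and 343 by 0.5 HAP, 1284 and 1300 by 3.5 HAP, 2096 and 1789 by 8 HAP, and 56.6 and 64.2 in ovules. The 5 groups did not overlap, and the level rose a further 1.49-fold from 3.5 to 8 HAP (log2 0.58, SE 0.101; adjusted p = 0.00173). AT3G09590, of the PR-1-like CAP superfamily, had 84.6 and 93.7 in unpollinated pistils, 100 and 107 by 0.5 HAP, 246 and 199 by 3.5 HAP, and 426 and 441 by 8 HAP. It rose 1.90-fold in the last step (log2 0.92, SE 0.108; adjusted p = 0.000175).

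AT5G64100 and AT5G64120 are class III peroxidases separated by 1 protein-coding gene on chromosome 5 in the TAIR10.1 gene order. AT5G64120, peroxidase 71, read 1316 and 713 in unpollinated pistils, 953 and 947 by 0.5 HAP, 1761 and 2196 by 3.5 HAP, 2935 and 2773 by 8 HAP, and 93.7 and 91 in ovules. Its unpollinated arrays differed more than those of any other late-rise gene (0.87 on the log2 scale), and 8 minus 3.5 HAP was not called (log2 0.53, SE 0.211; adjusted p = 0.0764). AT5G64100 had 98.4 and 106 in unpollinated pistils, 105 and 94.3 by 0.5 HAP, 199 and 194 by 3.5 HAP, and 214 and 204 by 8 HAP (adjusted p = 0.551 for the last step). The gene between them, AT5G64110, also a peroxidase and not a late-rise gene, read 62.9 and 76.1, 72.9 and 69.2, 114 and 130, and 226 and 206 over the same groups, with a log2 difference from 0.5 to 3.5 HAP of 0.66. All 3 neighbours were thus higher at 3.5 and 8 HAP than before. Probes of such related genes may share targets, which was not tested.

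AT1G26420, a berberine bridge enzyme-like oxidase, had 58.4 and 101 in unpollinated pistils, 104 and 90.9 by 0.5 HAP, 352 and 303 by 3.5 HAP, 409 and 349 by 8 HAP, and 116 and 115 in ovules. Its 3.5 and 8 HAP arrays overlapped (adjusted p = 0.412). It is the last of 5 consecutive genes, AT1G26380 to AT1G26420, all measured, and the other 4 had log2 differences from 0.5 to 3.5 HAP of -0.49 to 0.15. AT1G26390, the second, averaged 29.2 at 3.5 HAP and 184.8 at 8 HAP (log2 2.12).

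AT4G39830, an ascorbate oxidase-like cupredoxin, read 178 and 131 in unpollinated pistils, 210 and 216 by 0.5 HAP, 444 and 498 by 3.5 HAP, and 453 and 432 by 8 HAP, with no call in the last step (adjusted p = 0.631). GSTU16, a tau-class glutathione transferase, had 461 and 423 in unpollinated pistils, 401 and 425 by 0.5 HAP, 842 and 868 by 3.5 HAP, and 489 and 435 by 8 HAP. It fell 1.82-fold from 3.5 to 8 HAP (log2 -0.87, SE 0.102; adjusted p = 0.000182), where its arrays overlapped those of unpollinated pistils (adjusted p = 0.672 against UP). Of 11 tau-class genes measured it was the single one with a log2 difference over 0.8 from 0.5 to 3.5 HAP; the median of the 11 was -0.05.

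AT3G18280, a lipid transfer protein-like protein, had 819 and 543 in unpollinated pistils, 505 and 538 by 0.5 HAP, 1220 and 1416 by 3.5 HAP, 722 and 537 by 8 HAP, and 161 and 222 in ovules. It fell 2.08-fold from 3.5 to 8 HAP (log2 -1.06, SE 0.198; adjusted p = 0.00254), and its 8 HAP arrays overlapped those of unpollinated pistils.

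Among genes of transport, hormones and small molecules, AT1G67640, of the transmembrane amino acid transporter family, read 68.9 and 66.5 in unpollinated pistils, 65.3 and 61.5 by 0.5 HAP, 295 and 230 by 3.5 HAP, 583 and 557 by 8 HAP, and 73.1 and 82.2 in ovules. It was within background level in unpollinated pistils, at 0.5 HAP and in ovules, and it rose 2.12-fold from 3.5 to 8 HAP (log2 1.08, SE 0.109; adjusted p = 8.38e-05). AT5MAT, which adds a malonyl group to anthocyanins, had 62.9 and 76.3 in unpollinated pistils, 101 and 91.3 by 0.5 HAP, 195 and 202 by 3.5 HAP, and 1179 and 975 by 8 HAP. Most of its rise came after 3.5 HAP (5.07-fold, log2 2.34, SE 0.11; adjusted p = 5.94e-07), and no other of the 38 genes rose as much in that step.

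IAGLU, which joins glucose to the auxin indole-3-acetic acid, stood at 524 and 589 in unpollinated pistils, 633 and 572 by 0.5 HAP, 1541 and 1612 by 3.5 HAP, 1084 and 1031 by 8 HAP, and 146 and 129 in ovules. It fell 1.48-fold from 3.5 to 8 HAP (log2 -0.57, SE 0.0974; adjusted p = 0.00155) and was still 1.88-fold above UP. Of 7 measured genes of the early auxin list (of 20), 1 was called higher from 0.5 to 3.5 HAP, GH3.3, which joins amino acids to the same auxin; 5.19% of all probe sets were called higher in that step.

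AT1G59740 (NPF4.3), of the NRT1/PTR transporter family, had 337 and 364 in unpollinated pistils, 522 and 462 by 0.5 HAP, 814 and 987 by 3.5 HAP, 917 and 744 by 8 HAP, and 64.9 and 55.6 in ovules; its 3.5 and 8 HAP arrays overlapped (adjusted p = 0.528). AT4G14930, a SurE-like phosphatase family protein, read 1765 and 1989 in unpollinated pistils, 1616 and 1627 by 0.5 HAP, 4571 and 4596 by 3.5 HAP, 2834 and 2968 by 8 HAP, and 2917 and 2297 in ovules. It fell 1.58-fold from 3.5 to 8 HAP (log2 -0.66, SE 0.104; adjusted p = 0.000984). All 5 genes of this group were above UP at 8 HAP, where 19.7% of all probe sets and 30 of the 38 late-rise genes were.

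AT2G32190 and AT1G05340 encode small proteins with a cysteine-rich transmembrane module, a family linked to stress, and both peaked at 3.5 HAP. AT2G32190 had 303 and 317 in unpollinated pistils, 192 and 236 by 0.5 HAP, 583 and 604 by 3.5 HAP, and 310 and 266 by 8 HAP. It fell 2.01-fold in the last step (log2 -1.01, SE 0.116; adjusted p = 0.000169), and its 8 HAP arrays overlapped those of unpollinated pistils. AT1G05340 had 385 and 217 in unpollinated pistils, 288 and 242 by 0.5 HAP, 550 and 527 by 3.5 HAP, 176 and 189 by 8 HAP, and 299 and 284 in ovules. It fell 2.80-fold (log2 -1.49, SE 0.191; adjusted p = 0.000315), to 1.54-fold below UP (adjusted p = 0.0232). That last call was lost without UP replicate 1 (adjusted p = 0.124), without either 8 HAP array (adjusted p = 0.114 and 0.0759), with only the 2 groups in the fit (adjusted p = 0.0699) and with arrays centred on reference genes (adjusted p = 0.0612). AT5G40590, of the cysteine and histidine-rich C1 domain family, had 19.6 and 35.4 in unpollinated pistils, 25.2 and 22.4 by 0.5 HAP, 93.4 and 101 by 3.5 HAP, 33.2 and 36.6 by 8 HAP, and 24.2 and 27.9 in ovules, within background level throughout. It fell 2.22-fold from 3.5 to 8 HAP (adjusted p = 0.00028).

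The 3 late-rise protein kinases, 1 RING protein and 1 subtilase gave 2 calls from 3.5 to 8 HAP, 1 in each direction. In that step 18.9% of all probe sets were called higher and 12.4% lower. AT1G61360, an S-locus lectin receptor-like kinase, had 209 and 236 in unpollinated pistils, 281 and 262 by 0.5 HAP, 481 and 545 by 3.5 HAP, and 423 and 404 by 8 HAP. Its fall from 3.5 to 8 HAP (log2 -0.30, adjusted p = 0.0351) did not hold once 3.5 HAP replicate 2 (adjusted p = 0.233) or either 8 HAP array (adjusted p = 0.0959 and 0.178) was left out. AT1G51850, a leucine-rich repeat receptor-like kinase, and AT5G35380, a protein kinase, were within background level on every array and not called in that step (adjusted p = 0.115 and 0.217). AT1G53010, a RING protein, reached 128 and 93.1 by 3.5 HAP and 159 and 137 by 8 HAP; its call as higher (log2 0.39, adjusted p = 0.0471) was lost without 3.5 HAP replicate 2 (log2 0.19, adjusted p = 0.359) or either 8 HAP array (adjusted p = 0.259 and 0.0786). AT4G21323, a subtilase, a class of secreted serine protease, had 62.6 and 61.8 in unpollinated pistils, 62 and 69.1 by 0.5 HAP, 177 and 175 by 3.5 HAP, 206 and 209 by 8 HAP, and 89.3 and 92.8 in ovules (adjusted p = 0.0592 for the last step). All 5 were above UP at 8 HAP, as were 19.7% of all probe sets and 30 of the 38 late-rise genes.

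No role is given here for the other 10 genes. AT5G50335 had 107 and 99.2 in unpollinated pistils, 134 and 99.4 by 0.5 HAP, 490 and 410 by 3.5 HAP, 274 and 262 by 8 HAP, and 51.3 and 47 in ovules, and fell 1.63-fold after 3.5 HAP (adjusted p = 0.0018). AT2G15830 had 114 and 134 in unpollinated pistils, 81.7 and 69.5 by 0.5 HAP, 280 and 238 by 3.5 HAP, and 121 and 91.5 by 8 HAP, and fell 2.27-fold (adjusted p = 0.000166). Both thus peaked at 3.5 HAP, AT2G15830 after the lowest 0.5 HAP values of the 38 genes relative to UP (log2 -0.61).

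AT3G27410 rose from 39.4 and 48.4 in unpollinated pistils and 49.6 and 54.4 by 0.5 HAP to 189 and 151 by 3.5 HAP and stood at 173 and 187 by 8 HAP (adjusted p = 0.633 for the last step). AT1G65500 read 135 and 130, 152 and 168, 366 and 446, and 726 and 619 over the same groups, with a further rise of 1.63-fold (adjusted p = 0.000996). AT1G06540 read 45.4 and 61.5, 84.6 and 70.6, 205 and 170, and 338 and 298, with a further rise of 1.65-fold (adjusted p = 0.00228). The last 2 were above every earlier array at 8 HAP.

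AT1G10140, AT4G02360, AT4G15650, AT2G15650 and AT5G40645 changed by log2 -0.52, -0.28, -0.08, 0.62 and -0.32 from 3.5 to 8 HAP. AT4G02360 (adjusted p = 0.0315), AT5G40645 (0.044) and AT2G15650 (0.00582) were called. The call of AT4G02360 was lost without either 3.5 HAP array (adjusted p = 0.0992 and 0.138) or 8 HAP replicate 2 (log2 -0.18, adjusted p = 0.26), and that of AT5G40645 when any single array of either group was dropped (adjusted p = 0.0837 to 0.205). For AT2G15650 the call depended on 3.5 HAP replicate 2 and on 8 HAP replicate 1, with adjusted p-values of 0.054 and 0.063 without them. AT5G40645 had 26.1 and 29.8 in unpollinated pistils, 28.6 and 38.9 by 0.5 HAP, 75 and 68 by 3.5 HAP, 55.5 and 52.1 by 8 HAP, and 56.6 and 52.6 in ovules, so ovules lay near the 8 HAP arrays. The calls of AT4G02360, AT5G40645 and AT1G61360 were also lost under reference-gene centring (adjusted p = 0.228, 0.172 and 0.215), those of AT5G40645 and AT1G53010 with a pseudocount of 1 (adjusted p = 0.0652 and 0.0646), and that of AT1G53010 after quantile normalization (adjusted p = 0.131).

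**Figure D2:**
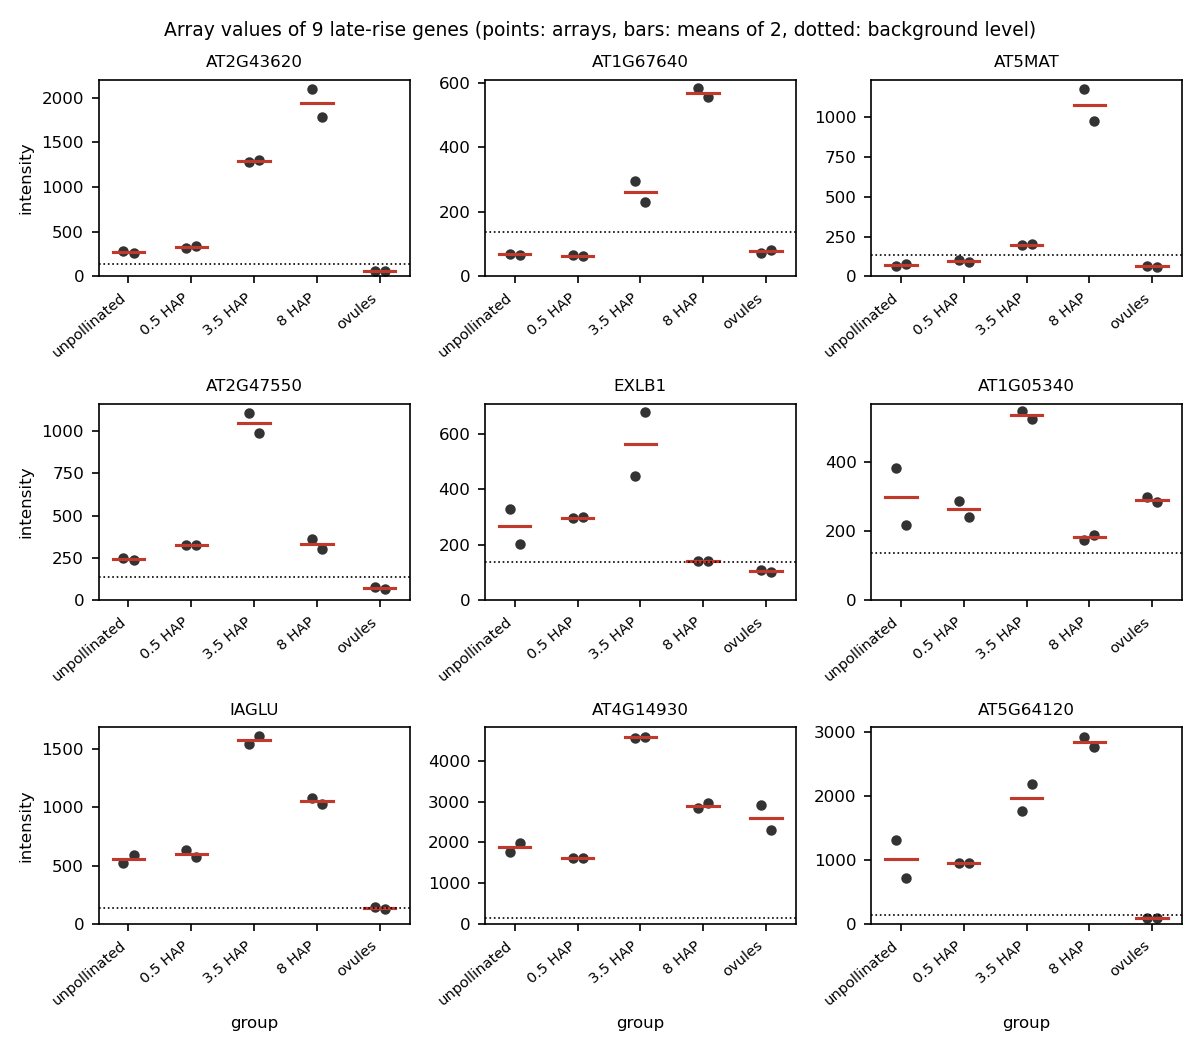
Intensity (vertical axes, linear and from 0) of 9 late-rise genes in the 5 groups (horizontal axes); points are arrays, red bars the means of 2 arrays and the dotted line the background level of 136.5. AT2G43620, AT1G67640 and AT5MAT (top) and AT5G64120 (bottom) were highest at 8 HAP. AT2G47550, EXLB1 and AT1G05340 (middle) and IAGLU and AT4G14930 (bottom) were highest at 3.5 HAP. By group means AT5G64120, AT2G43620, AT5MAT, AT2G47550, EXLB1 and IAGLU were lowest in ovules, and the others were not.

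The comparison of 8 with 3.5 HAP asked whether the rise went on. Of the 38 late-rise genes 10 rose, 15 fell and 13 were not called by limma. Of all probe sets 18.9% were called higher and 12.4% lower in that step. The shares among late-rise genes were 26.3% and 39.5%, and their median log2 difference was -0.16 against 0.05 over all probe sets. The 3.5 HAP arrays were also used to choose the genes, which favours falls after them. With genes chosen on replicate 1 and measured on replicate 2 the median was -0.02, with 19 above zero and 19 below. The other way round it was -0.31, with 13 above and 22 below. The balance of rises and falls also moved with the scaling: 9 rose and 18 fell after quantile normalization, and 12 and 12 when 3 reference genes set the centre of each array, which shifted the median of all probe sets to 0.18. That centre was itself not steady: the reference gene AT2G28390 was called lower from 3.5 to 8 HAP (log2 -0.51, limma adjusted p = 0.00517).

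Probe sets of nuclear genes that rose at least 0.8 by 3.5 HAP but had already risen by 0.5 or more at 0.5 HAP numbered 288. Of these 79 rose and 81 fell from 3.5 to 8 HAP (27.4% and 28.1%), with a median of 0.05. The difference between the 2 sets was not tested.

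**Figure D3:**
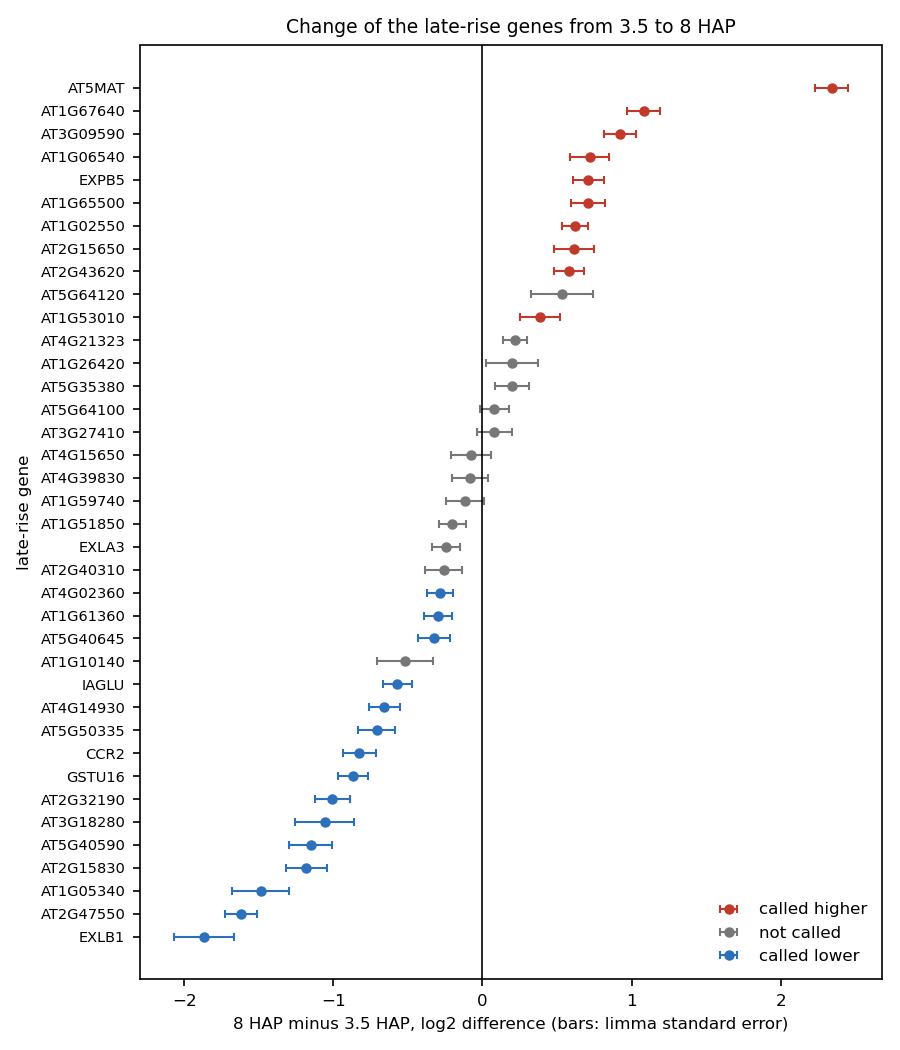
Log2 difference from 3.5 to 8 HAP (horizontal axis) of each late-rise gene (vertical axis), with limma's standard error as bars. The 10 genes called higher run up to 2.34 (AT5MAT) and the 15 called lower down to -1.87 (EXLB1).

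Against unpollinated pistils 30 of the 38 were still higher at 8 HAP, 2 were lower (EXLB1 and AT1G05340) and 6 were not called. Of all probe sets 19.7% were called higher. The unpollinated arrays were also used to choose the genes, so a high count follows in part from the choice. The largest difference was that of AT5MAT (12.7-fold, adjusted p = 1.45e-09), followed by AT1G67640 (6.99-fold) and AT2G43620 (6.88-fold). The 6 that were not called were AT2G15830, AT5G40590, AT3G18280, AT2G32190, GSTU16 and AT1G10140. All 10 genes that rose after 3.5 HAP were within the 30, and 8 of the 15 that fell were.

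The ovule arrays, which the rule did not use, were compared with whole unpollinated pistils, whose arrays it did use. Of the 38 genes 15 were lower in ovules, 6 were higher and 17 were not called. Of all probe sets 22.0% were called lower and 29.6% higher. The shares among late-rise genes, 39.5% lower and 15.8% higher, were near those of the 288 probe sets that had already risen by 0.5 HAP (36.8% and 16.3%). Among the 15 late-rise genes above background level in unpollinated pistils, 10 were lower in ovules and 1 was higher; of all 15569 probe sets above that level in unpollinated pistils 25.6% were lower and 37.6% higher. The split depended on the scaling: 12 lower and 11 higher after quantile normalization, and 23 and 1 under reference-gene centring, which shifted the median over all probe sets from 0.04 to -0.29. Of the 3 reference genes 1 was itself called higher in ovules.

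AT5G64120 was 9.10-fold lower in ovules (log2 -3.19, SE 0.211; adjusted p = 2.23e-07), AT1G59740 4.81-fold (adjusted p = 6.34e-08), IAGLU 3.72-fold (adjusted p = 2.93e-08) and AT2G43620 3.72-fold (adjusted p = 3.98e-08). Of these, the ovule means of AT5G64120, AT1G59740 and AT2G43620 were within background level, so the size of their folds depends on it. AT3G18280 (3.33-fold), AT2G47550 (2.89-fold), GSTU16 (2.51-fold), AT2G15830 (2.46-fold), AT2G32190 (2.38-fold), EXLB1 (2.28-fold) and AT5G50335 (1.83-fold) were lower as well. AT5G64100 (log2 -0.38), AT1G65500 (-0.37), AT4G39830 (-0.37) and CCR2 (-0.35) were lower with calls that single arrays decided. They were lost without ovule replicate 1 for AT5G64100 (adjusted p = 0.0545), and without UP replicate 1 or ovule replicate 2 for AT1G65500 (adjusted p = 0.0526 and 0.0892), AT4G39830 (adjusted p = 0.186 and 0.113) and CCR2 (adjusted p = 0.125 and 0.174). The last 3 were also lost after quantile normalization (adjusted p = 0.14, 0.24 and 0.141), and AT4G39830 and CCR2 with only ovules and UP in the fit (adjusted p = 0.0775 and 0.0707).

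In the other direction, AT4G14930 was 1.38-fold higher in ovules (log2 0.46, SE 0.104; adjusted p = 0.00295), the single one of the 6 above background level, and AT5G40645 was 1.61-fold higher (adjusted p = 0.000297). AT1G26420 (1.41-fold), AT4G21323 (1.37-fold), AT1G02550 (1.24-fold) and EXLA3 (1.19-fold) were the others. Under reference-gene centring 1 of the 6, AT5G40645, kept its call. AT1G26420 lost it without UP replicate 1 (log2 0.17, adjusted p = 0.278) or either ovule array (adjusted p = 0.0914 and 0.0901), AT1G02550 without ovule replicate 1 (adjusted p = 0.0579), and EXLA3 without either UP array (adjusted p = 0.0728 and 0.12) or ovule replicate 2 (adjusted p = 0.261). With only ovules and UP in the fit AT1G26420 (adjusted p = 0.0702) and EXLA3 (adjusted p = 0.107) were not called, nor was EXLA3 with a pseudocount of 64 (adjusted p = 0.0567).

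The calls in ovules and after 3.5 HAP can be set side by side. Of all 22745 probe sets 22.0% were called lower in ovules, and 15569 were above background level in unpollinated pistils. Of the 15 genes that fell from 3.5 to 8 HAP, 9 were lower in ovules than in unpollinated pistils and 10 were above background level before pollination. Of the 10 that rose further, 2 were lower in ovules and 1 was above background level before pollination. This is a description of the 38 genes, and the contrasts share arrays with the choice of genes.

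**Figure D4:**
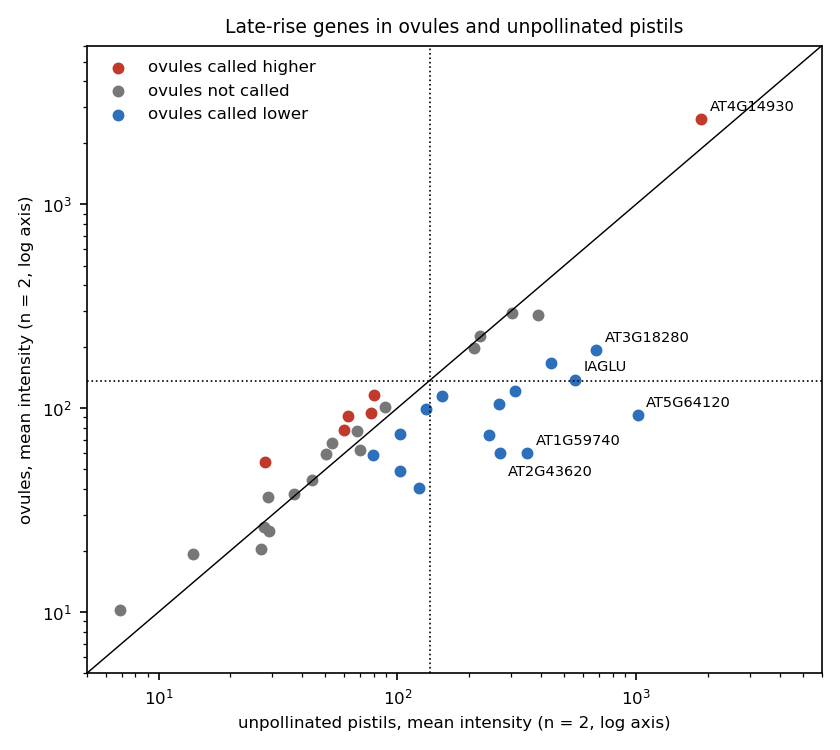
Mean intensity of each late-rise gene in unpollinated pistils (horizontal, log axis) and in ovules (vertical, log axis), coloured by the call of ovule minus UP; the solid line marks equality and the dotted lines the background level of 136.5. The 15 genes called lower in ovules lie below the line, with AT5G64120 farthest from it.

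None of the 38 was on the lists of pollen tube, S1 family, auxin, touch and wound, salicylate, anther, stigma and style, ovule or reference genes. The choice fixed part of this, and nothing is read from it. AT3G26870 of the S1 family met the thresholds and was left out by name. Pollen tube genes such as AT3G01270 and ANX2 were kept out by their 0.5 HAP minus UP differences (log2 3.02 and 1.67). Pollen markers moved over the same hours. The 11 measured genes of the pollen tube list (of 27) summed to 1241 and 1340 in unpollinated pistils, 5835 and 5537 by 0.5 HAP, 10079 and 11282 by 3.5 HAP, 11974 and 12431 by 8 HAP, and 1278 and 1134 in ovules. At 0.5 HAP 10 of the 11 were called higher, where 15.5% of all probe sets were, and from 0.5 to 3.5 HAP 8 were. The part of pollen RNA in the rise of the late-rise genes was not tested. From the list for anthers, pollen coat and petals 1 gene of 7 was measured, AT5G07230, and it was within background level on every array. The stigma, style and transmitting tract list summed to 4411 and 3984 in unpollinated pistils and 7964 and 7930 by 0.5 HAP. It then summed to 8231 and 7165 by 3.5 HAP and 3523 and 3765 by 8 HAP. Its fall thus followed an earlier rise, and ARPN averaged 1247 in unpollinated pistils, 4977 at 0.5 HAP and 2485 at 8 HAP. Of its 5 genes 3 were called lower in that step, ARPN, CES and AT3G12000 (log2 -1.05, -1.92 and -2.06), and SPT and NGA1 were not (-0.02 and -0.03); the sum is mostly ARPN and CES. The part of these cells in the falls of late-rise genes was not tested.

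The touch and wound list had 4 measured genes (of 15). Of these WRKY53 (log2 0.72) and WRKY6 (log2 0.40), both WRKY transcription factors, were called higher from 0.5 to 3.5 HAP, where 5.19% of all probe sets were. The other members, STZ, a zinc finger factor, and WRKY22 had log2 differences of -0.41 and -0.33 in that step and were not called. From 3.5 to 8 HAP WRKY6 and STZ were called lower (log2 -0.44 in both), where 12.4% of all probe sets were. Of 9 measured S1 family genes (of 16) 3 were called higher from 0.5 to 3.5 HAP, AT3G26860, AT3G26870 and AT3G26880, against 5.19% of all probe sets; the last 2 were left out of the late-rise genes by name. The 1 measured salicylate gene (of 12), SAG101, had a log2 difference of 0.04 from 0.5 to 3.5 HAP and was not called.

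By position, the 38 genes were spread over all 5 chromosomes: 13 on chromosome 1, 6 on 2, 6 on 3, 7 on 4 and 6 on 5, which held 3451, 2199, 2742, 1962 and 3007 of the probe sets naming 1 nuclear gene. Besides the peroxidases, 3 pairs had fewer than 9 protein-coding genes between them: AT1G59700 (GSTU16) and AT1G59740 with 7, AT4G15550 (IAGLU) and AT4G15650 with 8, and AT5G40590 and AT5G40645 with 6. Of these genes in between, 3 of the 7, 1 of the 8 and 4 of the 6 were measured. Those measured had log2 differences from 0.5 to 3.5 HAP of -0.29 to 0.29, all below the 0.8 of the rule.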

How the data were processed

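The authors deposited 1 table of linear intensities for probe sets on 10 one-colour arrays of biotin-labelled, twice-amplified cRNA, per the labels' protocols. MAS5 is listed in the submitters' processing notes, its role and version unstated; the scaling method is not given in the sources used here, and the array medians lay close together. Names came from the platform annotation and the TAIR10.1 gene table, used for names and gene order; 13513 probe sets named 1 gene and 503 several. Neither table describes functions, so roles are general knowledge. Sequences were not used here, and the planned promoter search was not run.

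The 64 control probe sets and 1 without values were left out. limma 3.58.1 in R 4.3.3 was fitted to log2(value + 16) over all 5 groups (lmFit, eBayes with trend; 5 residual and 6.106 prior degrees of freedom). P-values were Benjamini-Hochberg adjusted over 22745 probe sets, threshold 0.05. For list genes with more than 1 probe set the brightest was used. The precision is limited by 2 arrays per group.

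The genes and lists were chosen with earlier results of these data known; expansin, transferase and gene-block comparisons were added later. Array values were given for the 12 largest steps from 0.5 to 3.5 HAP among genes above background level at 3.5 HAP, the 6 largest rises and falls to 8 HAP, the 4 largest ovule differences each way and genes of a shared family; others were added for their roles. Alternatives were pseudocounts of 1 and 64, quantile normalization, leaving out the dimmest 40% of probe sets, 2-group fits, no trend, robust fits, a block for the replicate number, arrays centred on 3 reference genes, and single arrays left out. The fit was tested on simulated data. Python 3.11.15, pandas 2.3.3 and matplotlib 3.10.9 were used.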

Additional observations from a re-analysis of the deposited data

Results flagged for a closer look

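In all, 2 genes were above unpollinated pistils at 3.5 HAP and called below them at 8 HAP. In both the difference between the times was also called. EXLB1 averaged 267.3 in unpollinated pistils, 564.2 at 3.5 HAP and 139.7 at 8 HAP, a log2 difference of -1.87 between the times. AT1G05340 averaged 300.8, 538.5 and 182.1, a log2 difference of -1.49. Without UP replicate 1 the calls against UP at 8 HAP were lost for EXLB1 (log2 -0.50) and AT1G05340 (log2 -0.24). That of AT1G05340 was also lost without either 8 HAP array, in the 2-group fit and centred on reference genes. AT2G15830, AT2G32190 and AT3G18280 also fell to slightly below UP at 8 HAP (log2 -0.20, -0.10 and -0.10), with no call against UP.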

How the results depend on the processing

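Of the 25 calls from 3.5 to 8 HAP, 5 were lost under at least 1 alternative; of the 32 calls of 8 HAP against UP, 3 were, and of the 21 calls of ovules against UP, 9 were. With the dimmest 40% of probe sets left out 16 of the 38 late-rise genes were tested, so fewer calls were possible. From 3.5 to 8 HAP 2 were called higher in place of 10, and 10 lower in place of 15. At 8 HAP 10 were called higher than UP in place of 30. In ovules 1 was called higher in place of 6, and 11 lower in place of 15. The median from 3.5 to 8 HAP was then -0.54. Higher calls in ovules numbered 11 after quantile normalization but 1 under reference-gene centring, where lower calls numbered 23. A pseudocount of 64 left 21 probe sets meeting the rule, 19 of them among the 38, and centring on the reference genes left 26, all among the 38. Of the 3 reference genes 1 was itself called higher from 0.5 to 3.5 HAP, where 5.19% of all probe sets were. Without 1 array, 8 to 11 rose and 12 to 13 fell from 3.5 to 8 HAP, 29 to 31 were higher at 8 HAP than UP, and in ovules 4 to 6 were higher and 12 to 16 lower. From 3.5 to 8 HAP the sign turned, with no call, for AT3G27410 (log2 -0.0153 after quantile normalization, -0.0649 to 0.23 without 1 array), AT5G64100 (-0.00988 after quantile normalization), AT4G15650 (0.0484 centred, -0.26 to 0.11 without 1 array), AT4G39830 (0.0398 centred) and AT1G59740 (0.00943 centred, -0.26 to 0.0323 without 1 array). In ovules it turned with centring for AT1G02550 (-0.0160) and EXLA3 (-0.0817). Calls from 3.5 to 8 HAP were also gained. AT1G10140 was called lower in the 2-group fit (limma adjusted p = 0.000739), after quantile normalization and with a pseudocount of 64. AT5G64120 was called higher in the 2-group fit (limma adjusted p = 0.00299) and centred, and AT4G21323 in both and with a pseudocount of 64. EXLA3 was called lower in the 2-group fit and, like AT1G51850, after quantile normalization. AT5G35380 gained a call without 3.5 HAP replicate 1 (log2 0.38). The causes were not tested. Same-numbered arrays share only a number: the correlation of their replicate deviations between groups ran from -0.32 (UP and ovules) to 0.11. With the replicate number as a block 9 rose and 13 fell from 3.5 to 8 HAP, 30 were higher at 8 HAP than UP, and 5 were higher and 15 lower in ovules. The block ended the calls of AT1G53010, AT1G61360 and AT5G40645 from 3.5 to 8 HAP (adjusted p = 0.0638, 0.0507 and 0.0589) and of EXLA3 in ovules (adjusted p = 0.0505). Changes at background level are the least certain.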
